A study of Mus musculus with 29 samples.

Results

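The cytotoxic effector genes described here are 7 genes, Gzma, Gzmb, Prf1, Nkg7, Klrd1, Ifng and Ccl5, taken by name from the 15730 genes present in every young brain and blood table. Their levels were followed in natural killer (NK) cells, T cells and the other annotated cell types, in brain against blood and over time after stroke. All mice were of the strain C57BL/6J and had the middle cerebral artery blocked for a time and reopened, a model of ischaemic stroke, or had sham surgery. The young mice, males of 8 to 10 weeks, gave brain libraries at day 2 after sham (4), day 2 after stroke (4) and day 14 after stroke (4), and blood libraries of the same 3 conditions (4, 4 and 3). Mice of 17 to 20 months gave brain libraries only, at day 2 after sham (1 male, 1 female), day 2 after stroke (1 male, 2 female) and day 14 after stroke (1 female). Each brain library pooled 4 to 5 hemispheres and each blood library pooled the blood of 2 mice. Brain cells were digested with papain in the presence of the transcription inhibitor actinomycin D and sorted for high CD45, microglia and endothelial cells, whereas blood leukocytes were purified without a sort, so tissue and preparation cannot be told apart. Sham mice were sampled at day 2 only, so day 14 against sham combines stroke with the later time.

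Cytotoxic lymphocytes kill by releasing granules at the contact with a target cell. Perforin opens the target's membrane, granzymes enter and start cell death, and interferon gamma and chemokines act on the cells around. NK cells carry this machinery ready made, whereas T cells acquire it when CD8 cells become effector or memory cells. In stroke, lymphocytes enter the injured brain from the blood, where both kinds are found among leukocytes around the lesion.

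The members have different roles. Gzma and Gzmb encode the granule proteases granzyme A, a tryptase, and granzyme B, which cleaves after aspartate and activates caspases. Prf1 encodes perforin, and Nkg7 a granule membrane protein needed for efficient degranulation. Klrd1 encodes CD94, which pairs with NKG2 receptors to read the class Ib molecule Qa-1 (gene H2-T23). Ifng encodes interferon gamma, which activates macrophages and microglia, and Ccl5 a chemokine that draws leukocytes. The GENCODE annotation of GRCm38 places these protein-coding genes at chr13:113093825-113100981 (Gzma), chr14:56258838-56262260 (Gzmb), chr10:61297833-61304680 (Prf1), chr7:43437073-43438249 (Nkg7), chr6:129591782-129598775 (Klrd1), chr10:118441046-118445892 (Ifng) and chr11:83525778-83530518 (Ccl5).

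The 250 bases before the RefSeq start site are shown for Gzmb and Ifng, which differed most between brain and blood T cells, and for Gzma, which differed in NK cells. RefSeq entries on GRCm38.p6 were found for 5 of the 7 members, all but Klrd1 and Ccl5. Capitals mark matches to 3 motifs, searched on both strands, none overlapping another in these windows. The first, TCACAC, is the core of T-box sites, the kind bound by T-bet and Eomes. RUNX transcription factors bind sites with the letters TGTGGT. The TATA box, where the basal machinery sits, was searched as TATAAA.
Gzmb, chr14:56262335-56262584, minus strand: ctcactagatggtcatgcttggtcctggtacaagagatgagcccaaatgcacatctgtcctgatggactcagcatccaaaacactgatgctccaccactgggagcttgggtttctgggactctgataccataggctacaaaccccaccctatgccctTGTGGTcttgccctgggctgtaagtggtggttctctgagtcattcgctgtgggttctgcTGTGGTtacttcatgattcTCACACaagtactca
Gzma, chr13:113100982-113101231, minus strand: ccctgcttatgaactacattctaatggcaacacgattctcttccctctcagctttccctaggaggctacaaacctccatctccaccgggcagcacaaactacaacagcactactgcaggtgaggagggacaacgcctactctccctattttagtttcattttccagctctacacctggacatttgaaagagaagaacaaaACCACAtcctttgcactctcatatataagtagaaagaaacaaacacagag
Ifng, chr10:118440796-118441045, plus strand: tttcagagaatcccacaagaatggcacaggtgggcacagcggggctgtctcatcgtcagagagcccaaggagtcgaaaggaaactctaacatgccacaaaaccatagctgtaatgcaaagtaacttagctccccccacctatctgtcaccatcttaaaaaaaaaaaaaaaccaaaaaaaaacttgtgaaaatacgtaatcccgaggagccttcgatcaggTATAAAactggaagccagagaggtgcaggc
Gzmb held TGTGGT at 93 and 34 bases before the start (positions -93 and -34) and TCACAC at -15. Gzma held the reverse strand of TGTGGT at -50, and Ifng held TATAAA at -30. Among all 32851 promoter windows of this length, TCACAC occurred in 12.29%, TGTGGT in 14.05% and TATAAA in 12.37%. Of the 5 members found, 2 held TCACAC, 4 held TGTGGT and 1 held TATAAA. These are letter matches in a window and no measure of binding.

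Values below are expected counts summed over the cells of a type in a library and given as CPM, the usual depth-scaled share of that type's summed counts. A gene is called changed at an adjusted p under 0.05 in edgeR's quasi-likelihood test, adjusted over all genes tested. The 29 libraries held 106977 cells, 1143 to 6328 per library, and the median cell of a library had 320.8 to 1363 counts. Pairs of libraries shared 368 cell barcodes in all, at most 7 in any of the 406 pairs. The labelled NK cells held the 9 NK marker genes at a summed 10532 to 13989 CPM in blood and 4011 to 10171 CPM in brain. The labelled T cells held the 11 T cell marker genes at 7081 to 8183 CPM in blood and 5261 to 9679 CPM in brain. In sums over cells, fewer cells with a gene and less RNA of it per cell cannot be told apart.

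Most counts of the members lay in NK and T cells, with exceptions that differed by gene. Pooled over the young libraries, Gzma stood at 11593 CPM in blood NK cells, 3300 CPM in brain NK cells, 369.9 CPM in a blood type coded pre, 112.7 CPM in brain T cells and 40.7 CPM in blood T cells. Blood NK cells supplied 94.16% to 98.7% of all Gzma counts in the 3 blood groups, and brain NK cells 74.55% to 95.8% in the 3 young brain groups. Ifng stood at 103.0 CPM in brain NK, 77.3 CPM in brain T, 43.5 CPM in blood NK and 3.0 CPM in blood T cells. The order of the pooled levels of Ccl5 was blood NK cells (16042 CPM), brain NK cells (5459 CPM), brain T cells (3460 CPM), the brain types MaC (2026 CPM) and DC (1433 CPM), and blood T cells (1333 CPM). The counting intervals of neighbours in that order did not overlap, the closest being MaC (from 1481 CPM) and DC (up to 1473 CPM). These are 95% exact Poisson intervals and cover counting error only. Pooling weights each group by its cells, and the spread between libraries was wider. Brain NK cells at day 14 (2091 to 3905 CPM) overlapped brain T cells (1410 to 3477 CPM), and brain DC at day 2 (96.0 to 658 CPM) lay below blood T cells (851 to 1456 CPM).

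**Figure D1:**
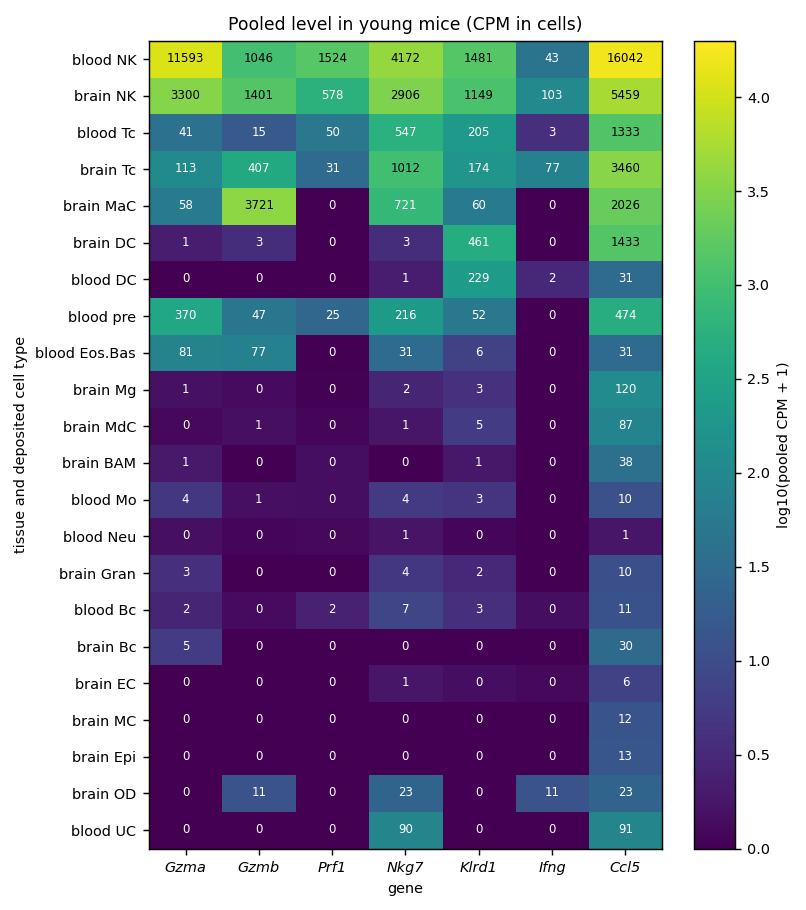
Pooled CPM of the 7 members (columns) in each deposited cell type of young mice (rows), printed in the cells and coloured on a log10 scale. NK and T cells of both tissues hold all 7 members, the brain type MaC holds Gzmb at 3721 CPM, and the DC types hold Klrd1 at 461 CPM in brain and 229.1 CPM in blood.

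Cells outside the lymphocytes held some of the members at high levels. The 43 young brain cells coded MaC held Gzmb at 3721 CPM, with a 95% interval of 2991 to 4583 CPM from 89 counts. Prf1 and Ifng were at 0 there, with an upper bound of 154.4 CPM. Their leading genes were the mast cell protease genes Cpa3 (9251 CPM), Cma1 (8701 CPM), Mcpt4 (8407 CPM) and Tpsb2 (6281 CPM). Brain cells coded DC held Klrd1 at 461 CPM and supplied 37.57% of its brain counts at sham, 84.96% at day 2 and 61.83% at day 14 after stroke. At day 14 the DC also supplied 46.68% of brain Ccl5, against 18.78% from T cells, 17.81% from microglia and 8.777% from NK cells. The sort sets how many cells of each brain type were sequenced, so these percentages describe the libraries. The 5 dendritic marker genes summed to 708 to 2392 CPM in brain DC, and monocyte and macrophage genes to 1846 to 6454 CPM. The 9 NK marker genes summed to at most 260 CPM in brain DC.

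In NK cells Gzma was lower in brain than in blood in all 3 conditions. The fit held 20 young libraries with at least 10 NK cells and 1222 genes. Brain libraries with fewer cells did not enter: sham replicate 4 (9 cells), day 2 replicate 4 (3 cells) and day 14 replicate 1 (8 cells). The fitted brain libraries held 14 to 31 NK cells at sham and day 2 and 102 to 135 at day 14, and the blood libraries 62 to 338. Of the 7 members, 6 passed the filter on low counts and Ifng did not. The filter could be passed through blood alone, so counts over the 6 are read only beside the share of all genes called.

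Gzma stood at 2664, 3592 and 3862 CPM in the 3 sham brain libraries, against 12525, 9638, 10964 and 11608 CPM in sham blood. After stroke it was at 3032, 2889 and 6892 CPM in brain at day 2 and at 1542, 4528 and 2127 CPM at day 14. Blood NK cells held 15671, 12274, 11540 and 11227 CPM at day 2 and 11535, 10926 and 10832 CPM at day 14. Every fitted brain library lay below every blood library in all 3 conditions. The log2 fold change of brain over blood was -1.95 (SE 0.36, edgeR adjusted p = 0.00557) at sham, -1.59 (SE 0.35, adjusted p = 0.0122) at day 2 and -1.93 (SE 0.36, adjusted p = 0.00131) at day 14. Over its alternatives the adjusted p ranged from 1.71e-05 to 0.135 at sham, from 0.000462 to 0.0999 at day 2 and from 1.88e-06 to 0.0273 at day 14. The sham call was lost without brain sham replicate 1 (-1.92, adjusted p = 0.135), and the day 2 call without brain day 2 replicate 1 (-1.47, adjusted p = 0.0999) or with a minimum of 20 cells (-1.43, adjusted p = 0.0756). Gzma was the only member called at sham, where 2.05% of the 1222 genes were called, and at day 2, where 3.36% were.

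Ccl5 fell in brain NK cells at day 14. At sham it stood at 9794, 10716 and 11334 CPM in brain, and at day 2 after stroke at 11418, 11956 and 22834 CPM. By day 14 the fitted brain libraries held 2091, 3905 and 2308 CPM, below every earlier fitted brain library. Blood NK cells held 11776 to 20221 CPM over all 11 libraries, with no time separated from another. Brain over blood, the log2 fold change was -0.87 (SE 0.30, edgeR adjusted p = 0.169) at sham, -0.16 (SE 0.29, adjusted p = 0.850) at day 2 and -2.38 (SE 0.33, adjusted p = 9.27e-05) at day 14. At sham the brain and blood libraries did not overlap, yet the gene was not called.

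**Figure D2:**
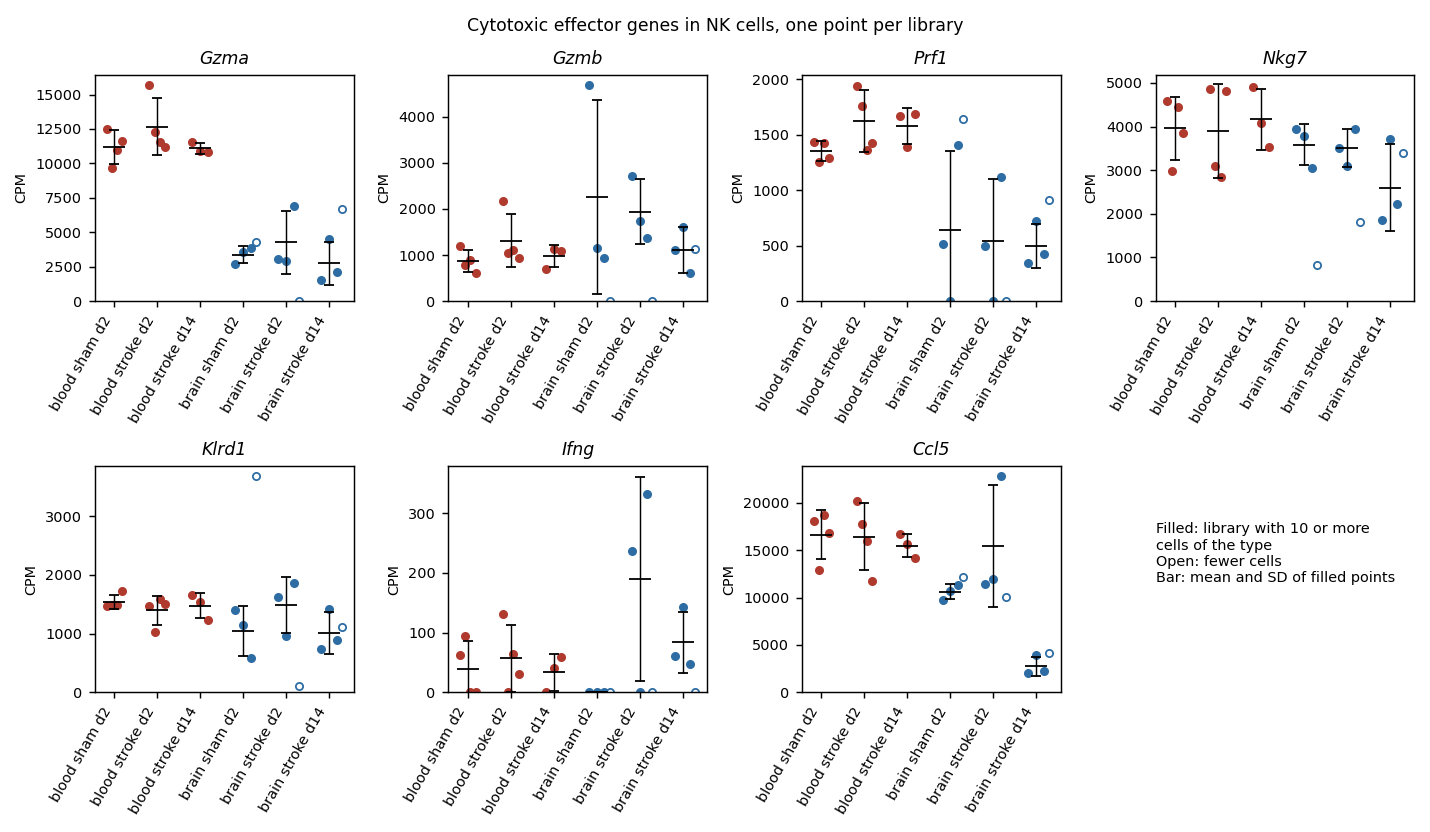
CPM of each member in NK cells (vertical axes, linear), 1 point per library, for blood (red) and brain (blue) at sham and after stroke. Filled points are libraries with at least 10 NK cells, with their mean and SD as bars drawn no lower than 0, and open points are smaller libraries. Gzma lies at 6892 CPM or below in every filled brain library and at 9638 CPM or above in blood, and Ccl5 drops to 2091 to 3905 CPM in brain at day 14.

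Within brain, Ccl5 at day 14 was lower than at day 2 by a log2 fold change of -2.29 (SE 0.33, adjusted p = 0.000574) and lower than at sham by -1.63 (SE 0.33, adjusted p = 0.0193). It was 1 of 3 genes called between day 14 and sham (0.245% of genes) and the only gene called between day 14 and day 2 (0.0818%). The call against sham was lost in 14 of 28 alternatives, with adjusted p from 0.000254 to 0.524. These included leaving out any 1 of sham brain replicates 1 to 3 (adjusted p 0.112, 0.111 and 0.237) or of day 14 brain replicates 2 to 4 (0.232, 0.0818 and 0.295). They also included leaving out brain day 2 replicate 1 (0.0890) or any 1 of the day 14 blood replicates (0.147, 0.140 and 0.123), and having no minimum of cells (-1.46, adjusted p = 0.116). The call against day 2 was kept when any 1 library was left out and was lost in 2 of 29 alternatives (adjusted p 7.44e-11 to 0.174). The smaller day 14 library left out of the fit held 4128 CPM from 8 cells, next to the 3 fitted ones. Values of the smaller sham and day 2 brain libraries left out of the fit are not given here.

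The change of Ccl5 from day 2 to day 14 differed between brain and blood NK cells by -2.22 on the log2 scale (SE 0.43, edgeR adjusted p = 0.0409). It was the only gene of 1222 called in this interaction (0.0818%). This call was lost in 21 of 28 alternatives, with estimates from -2.42 to -1.82 and adjusted p from 0.000138 to 0.685. Leaving out brain day 2 replicate 3, the library at 22834 CPM, gave -1.82 (adjusted p = 0.138). Leaving out brain day 14 replicate 4 gave an adjusted p of 0.685, and blood day 14 replicate 1 gave -2.07 (0.506). The call was also lost without any 1 of the 3 sham brain libraries, brain day 2 replicate 1, brain day 14 replicates 2 or 3, blood sham replicates 1, 3 or 4, blood day 2 replicates 3 or 4, or blood day 14 replicates 2 or 3 (adjusted p 0.0544 to 0.372). The share of NK cells with a Ccl5 count moved the same way: 83.87% of 62 cells at sham, 84.93% of 73 at day 2 and 52.15% of 349 at day 14 in brain. In blood it was 96.67%, 97.80% and 96.67%. The median NK cell held 377.9, 529.9 and 595.7 counts in the 3 brain groups. Among the cells with at least 300 counts, thinned to 300 counts, the brain shares were 64.10%, 77.97% and 39.73%. Blood B cells, which should lack the gene, showed Ccl5 in 0.3353% to 0.7031% of cells at a median of 381.2 to 437.8 counts. Brain B cells showed it in 0.4255%, 0% and 2.128% of 235, 70 and 141 cells at medians of 290.4, 401.4 and 402.8 counts, the 0 allowing up to 4.286%.

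Perforin was lower in brain NK cells at day 14. Prf1 stood at 345, 721 and 421 CPM in brain and 1665, 1386 and 1681 CPM in blood, with no overlap. The log2 fold change was -1.54 (SE 0.47, edgeR adjusted p = 0.0488), and 3 of 6 members were called in this comparison, against 6.3% of all genes. The Prf1 call lay at the threshold and was lost in 17 of 28 alternatives (adjusted p 0.000761 to 0.320), 15 of which left out 1 library. Without brain day 14 replicate 2 the adjusted p was 0.148, without replicate 4 it was 0.139, and without any 1 of the 11 blood libraries it was 0.0562 to 0.197. Without brain sham replicate 1 it was 0.0540, and without brain day 2 replicate 1 it was 0.0664. Sham (-1.19, SE 0.56, adjusted p = 0.336) and day 2 (-1.29, SE 0.51, adjusted p = 0.220) gave values of the same sign that were not called. In sham and day 2 brain, 1 library each listed Prf1 at 0, from 14 and 15 cells.

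Gzmb, Nkg7 and Klrd1 were not called between brain and blood NK cells. Gzmb stood at 4685, 1145 and 933 CPM in sham brain against 604 to 1187 CPM in sham blood, a log2 fold change of 1.29 (SE 0.49, adjusted p = 0.200) that turned to -0.12 without brain sham replicate 1. At day 2 and day 14 its fold changes were 0.48 (SE 0.48) and 0.32 (SE 0.47). Nkg7 gave -0.35, -0.22 and -0.58 (SE 0.30, 0.29 and 0.30), and Klrd1 -0.71, 0.10 and -0.43 (SE 0.35, 0.32 and 0.31). Of the granzymes, Gzma was thus called lower in brain NK cells and Gzmb was called in neither direction. The difference between these genes was not tested. Ifng was listed at 0 in all 4 sham brain libraries, where 62 cells allow a share of up to 4.839% of cells with a count. It stood at 236.65, 0 and 332.1 CPM at day 2 and at 61.0, 142.6 and 48.3 CPM at day 14, against 0 to 131.65 CPM in blood.

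No call was made over time in blood NK cells for the 6 members tested. None of 1222 genes was called in any of the 3 blood contrasts (0% each), by edgeR or DESeq2. At an unadjusted p under 0.05 there were 19 genes between day 2 and sham, 12 between day 14 and sham, and 26 between day 14 and day 2. Brain at day 2 against sham also gave 0 called genes (0%) by either tool and 75 at an unadjusted p under 0.05. For the members there, the estimate for Ccl5 was 0.66 (SE 0.32) and for Gzma 0.50 (SE 0.38). Other measures moved with the tissue difference. The summed NK marker list did not overlap between blood (10532 CPM or more) and brain (10171 CPM or less). The monocyte and macrophage list was at 371 to 776 CPM in blood and 661 to 3144 CPM in brain NK cells. The part of these in the results was not tested. The T cell gene Cd4 was at 0 in all fitted young NK libraries, and Cd3e was at 0 in the day 2 and day 14 brain libraries. The other T cell marker genes in NK cells are not given here, so these 2 genes do not show that the label is free of T cells.

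In T cells Gzmb was called higher in brain than in blood in all 3 conditions, though at sham the direction turned in 1 alternative. The fit held 23 young libraries and 4625 genes, and all 7 members passed the filter. The brain libraries held 43 to 70 T cells at sham, 12 to 90 at day 2 and 50 to 356 at day 14, and the blood libraries 219 to 1178. Gzmb stood at 378, 160, 37.2 and 0 CPM in sham brain, at 230, 1277, 891 and 0 CPM at day 2 and at 201, 337, 498 and 286 CPM at day 14. In blood T cells it stood at 2.46 to 28.6 CPM in all 11 libraries. The libraries at 0 were sham replicate 4 and day 2 replicate 4, which held 43 and 12 T cells. Day 14 brain and blood did not overlap.

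The log2 fold change of Gzmb, brain over blood, was 3.06 (SE 0.79, edgeR adjusted p = 0.0276) at sham, 6.21 (SE 0.69, adjusted p = 2.24e-06) at day 2 and 3.81 (SE 0.60, adjusted p = 0.000106) at day 14. The calls after stroke were kept in all 29 and 31 alternatives, with adjusted p up to 0.000475 and 0.00756. Since Gzmb was low in blood T cells, it could enter the fit through brain alone. Its calls against blood are therefore given as a description. The sham call was lost with the same sign in 4 of 30 alternatives. These included leaving out brain sham replicate 1 (1.99, adjusted p = 0.457), brain sham replicate 2 (2.99, 0.0783) or blood sham replicate 4 (2.74, 0.0649). In 1 other, T cells with a Cd8a or Cd8b1 count, the fold change turned to -2.78 (edgeR adjusted p = 0.785). The sham adjusted p ranged from 0.00251 to 0.785 over the 30 alternatives. In brain, 3.153% of T cells at sham, 13.49% at day 2 and 9.848% at day 14 had a Gzmb count, against 0.4049% to 0.9566% in blood. Among blood B cells 0% to 0.0575% had one, and of 235, 70 and 141 brain B cells none had. A count of 0 in those brain B cells allows shares of up to 1.277%, 4.286% and 2.128%. Brain T cells held medians of 371.3, 548.1 and 547.6 counts and blood T cells 479.8 to 546.0. Only cells with at least 300 counts could be thinned to 300 counts. Among these, Gzmb was then in 3.268%, 9.195% and 5.556% of brain T cells and 0.1809% to 0.5081% of blood T cells.

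**Figure D3:**
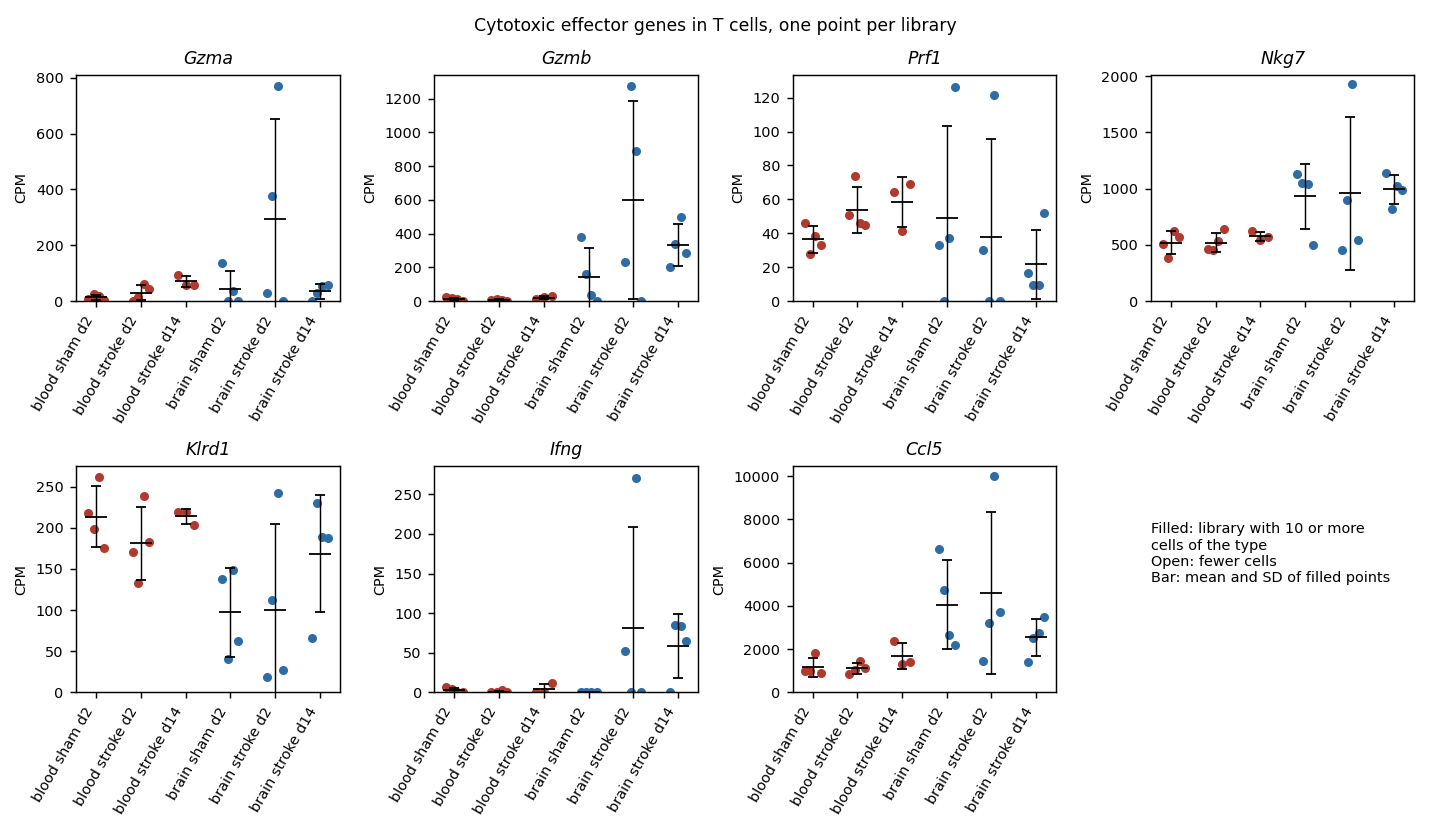
CPM of each member in T cells (vertical axes, linear), 1 point per library, with mean and SD bars drawn no lower than 0. Gzmb reaches 1277 CPM in brain at day 2 and stays at 28.6 CPM or below in blood, while Prf1 and Klrd1 overlap between the tissues.

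Ifng was called higher in brain than in blood T cells after stroke. Near 0 in blood, it could enter the fit through brain alone, so these calls are given as a description. All 4 sham brain libraries listed it at 0, from 222 cells. At day 2 the brain libraries held 52.6, 0, 270 and 0 CPM, and at day 14 they held 0, 85.4, 83.5 and 64.7 CPM. Blood held 0 to 11.4 CPM, with a single count over the 4 day 2 libraries, and both tissues had libraries at 0 at each time. The pooled day 2 ratio of brain to blood was 176.5, with a 95% counting interval of 28.5 to 7286 (edgeR log2 difference 6.10, SE 1.31, adjusted p = 0.00461). Such an interval covers counting error only and not the spread between libraries. Without brain day 2 replicate 3, the library at 270 CPM, the log2 difference was 3.85 and the call was lost (adjusted p = 0.304). At day 14 the pooled ratio was 19.8 (8.42 to 56.7), and the log2 fold change was 3.82 (SE 1.05, adjusted p = 0.0243). The day 14 call was lost by DESeq2 (3.91, adjusted p = 0.126), without brain day 14 replicate 3 (0.0516) and without blood day 14 replicate 1 (0.148) or 2 (0.153), with a range of 9.45e-05 to 0.635 over alternatives.

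Gzma and Ccl5 were higher in brain T cells at day 2, and these calls were lost without 1 library. Gzma stood at 29.4, 375, 769 and 0 CPM in brain and 0, 14.8, 60.3 and 44.5 CPM in blood, a difference of 3.23 on the log2 scale (SE 0.72, edgeR adjusted p = 0.00493). Ccl5 stood at 1472, 3227, 10017 and 3707 CPM in brain and 851, 1018, 1456 and 1139 CPM in blood, a log2 fold change of 1.63 (SE 0.48, adjusted p = 0.0325). Replicate 3 was the highest of the brain libraries for Gzma, Ccl5, Ifng, Nkg7, Prf1 and Klrd1. Without it, Gzma gave 1.85 (adjusted p = 0.304) and Ccl5 0.58 (adjusted p = 0.467). The Ccl5 call was also lost without any 1 of the 4 day 2 blood libraries (adjusted p 0.0857, 0.0944, 0.0531 and 0.0614). Over alternatives the adjusted p ranged from 3.76e-06 to 0.633 for Gzma, from 2.08e-06 to 0.374 for Ifng and from 0.00284 to 0.535 for Ccl5. In all, 1 of 7 members was called at sham (3.74% of all genes), 4 at day 2 (8.02%) and 2 at day 14 (7.61%). The filter could be passed through 1 tissue alone, as for Gzmb and Ifng, which were low in blood, so these counts support nothing by themselves. Without TMM scaling the middle value of all tested genes in T cells moved on the log2 scale from -0.27, -0.13 and 0.06 to 0.08, 0.27 and 0.24 at sham, day 2 and day 14, and no called member changed direction or lost its call.

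Neither Gzma nor Ccl5 differed by the test at the other times. Ccl5 stood at 6639, 4758, 2645 and 2181 CPM in sham brain against 883 to 1813 CPM in sham blood, without overlap, with a fold change of 1.41 (SE 0.48, adjusted p = 0.109). It was called without TMM (1.79, adjusted p = 0.0176), with only the compared groups fitted (1.63, 0.0241) and without brain day 2 replicate 3 (1.39, 0.0319), within a range of 0.0176 to 0.484 (edgeR and DESeq2). At day 14 it was 1410 to 3477 CPM in brain and 1320 to 2374 CPM in blood (0.44, SE 0.50, adjusted p = 0.676). Gzma at day 14 was 0 to 58.3 CPM in brain and 57.6 to 94.5 CPM in blood (-0.94, SE 0.73, adjusted p = 0.515). Prf1 was 9.23 to 52.0 CPM in brain and 41.5 to 68.9 CPM in blood at day 14 (-1.60, SE 0.54, adjusted p = 0.0718). It was called without a filter (adjusted p = 0.0415), without brain day 2 replicate 3 (0.0423) and without brain day 14 replicate 4 (-2.56, 0.00908), within a range of 0.00908 to 0.327 over its alternatives (edgeR and DESeq2). Thus Gzmb and Prf1 had fold changes of opposite sign in day 14 T cells. That difference between genes was not tested. Nkg7 gave 0.50, 0.63 and 0.61 (SE 0.34 to 0.35), and Klrd1 -1.42, -0.80 and -0.39 (SE 0.37 to 0.52), none called by edgeR with all libraries. Klrd1 at sham was called without a filter (-1.71, adjusted p = 0.0467) and with the replicate block (-2.52, adjusted p = 0.0461), within a range of 0.0461 to 0.319.

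**Figure D4:**
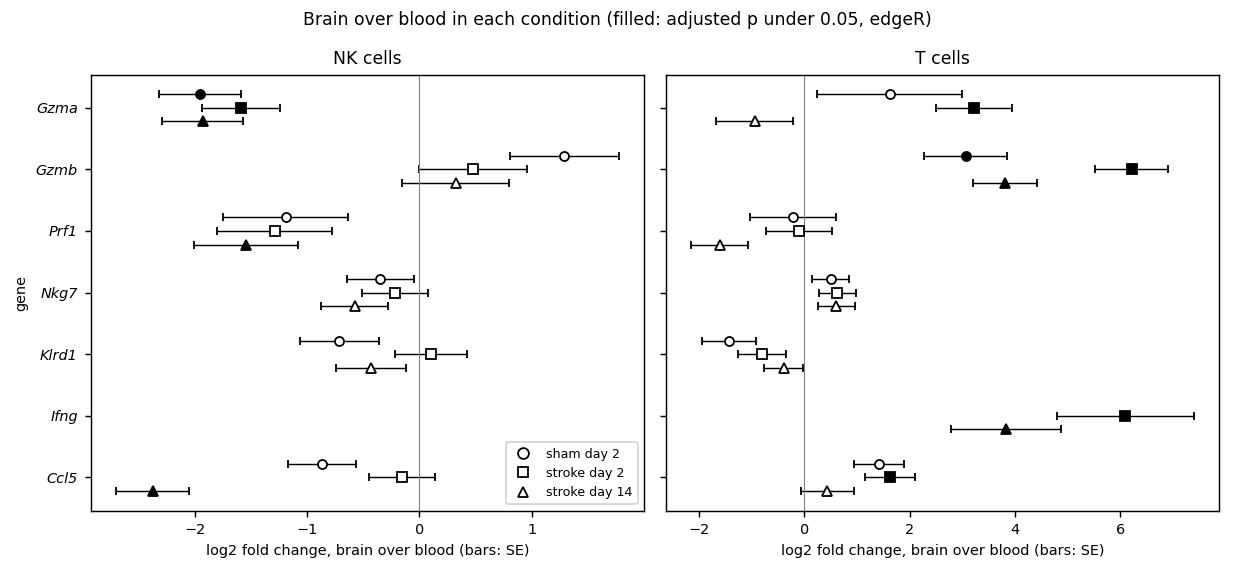
Log2 fold change of brain over blood (horizontal axis, bars are SE) for each member in NK cells (left) and T cells (right), at sham (circles), day 2 (squares) and day 14 after stroke (triangles). Filled symbols are called by edgeR: Gzma lies left of 0 in NK cells at all 3 times and Gzmb right of 0 in T cells at all 3 times. Ifng is drawn only for T cells after stroke, since it did not pass the filter in NK cells and was listed at 0 in sham brain T cells.

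No member was called over time within either tissue in T cells. In brain, 1 gene of 4625 was called at day 2 against sham (0.0216%), 9 at day 14 against sham (0.195%) and 0 at day 14 against day 2 (0%). By DESeq2 these counts were 0, 6 and 2, and 314 genes had an unadjusted p under 0.05 in the last contrast. In blood, 0% were called in each of the 3 contrasts by edgeR and 0 by DESeq2, and 43, 32 and 70 genes had an unadjusted p under 0.05. The interaction of tissue and time also gave 0% by edgeR, 0 by DESeq2 and 190 genes at an unadjusted p under 0.05. Gzma between day 14 and day 2 in brain gave -3.06 (SE 0.75, edgeR adjusted p = 0.262). Without the filter on low counts it was -2.85 (adjusted p = 0.000787), with a range of 0.000787 to 0.631 over alternatives. Gzmb at day 2 against sham in brain gave 2.16 (SE 0.64, adjusted p = 0.342). Gzma in blood stood at 5.55 to 23.8 CPM at sham and 57.6 to 94.5 CPM at day 14, without overlap, and was not called (2.44, SE 0.78, adjusted p = 1).

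Marker genes of T cell states and of other cell types were measured in the same libraries, with no test. Cd8b1, a chain of the CD8 coreceptor, stood at 793 to 1085 CPM in blood T cells and 0 to 959 CPM in brain T cells. The monocyte and macrophage list was at 17 to 126 CPM in blood and 36 to 976 CPM in brain, and the 4 proliferation genes at 13 to 59 CPM in blood and 333 to 798 CPM in day 14 brain. Proliferation values of sham and day 2 brain are not given here. Foxp3, the factor of regulatory T cells, stood at 18.5 to 117 CPM in day 14 brain and at 0 in sham and day 2 brain. The part of these in the results was not tested, except that T cells with a Cd8a or Cd8b1 count were fitted alone, an alternative chosen after seeing the data. At sham, Gzmb then gave -2.78 (adjusted p = 0.785), and at day 14 the call for Gzmb was kept.

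The members did not sit in the same T cells of the brain. The deposited finer annotation of young brain T cells had 7 groups, and since it rests on the same cells its differences are described without a test. Ccl5 was at 8571 CPM in the group coded Tc2 and 5087 CPM in Tc3, which held Cd8b1 at 951 and 769.2 CPM. Gzmb was at 556.3 CPM in Tc2 and 727.9 CPM in Tc3, but its highest level pooled over the 3 groups, 1121 CPM (95% interval 904 to 1382 CPM), was in Tc5. Of the 102 cells of Tc5, 94 came from day 14, 7 from day 2 and 1 from sham, while Tc2 held 217, 53 and 54 and Tc3 134, 12 and 9. Within groups the order differed: Gzmb was at 1081.5 CPM in Tc5, 484 CPM in Tc3 and 398 CPM in Tc2 at day 14, but at 1893, 3271 and 1271 CPM at day 2. The cells of Tc5 held Foxp3 at 298.1 CPM and Cd8b1 at 24.8 CPM, and listed Gzma, Prf1, Ifng and Klrd1 at 0. Tc7 held Ifng at 189.2 CPM, Gzma at 264.8 CPM and the proliferation gene Mki67 at 906.7 CPM. It made up 6.757% of brain T cells at sham, 6.512% at day 2 and 7.62% at day 14. Tc4, with the gamma delta receptor gene Trdc at 2214 CPM, and Tc6, with Gata3 at 454.8 CPM, held Gzmb at 48.7 and 15.7 CPM. In blood, the group coded Tc3 held Ccl5 at 6225 CPM and Gzmb at 70.4 CPM, and the largest group, Tc1, held Cd8b1 at 1812 CPM with Gzmb at 0.6 CPM. Codes are set per tissue, so the same code in blood and brain need not be the same cells. Among blood NK cells, the 137 cells coded NK3 held Gzmb at 2614 CPM and Prf1 at 2340 CPM, against 933.7 and 1584 CPM in the 1206 cells coded NK1.

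Outside lymphocytes, Ccl5 rose in microglia after stroke. Young sham microglia held it at 4.87, 0, 1.08 and 0 CPM. At day 2 it stood at 20.6, 69.5, 166.2 and 75.8 CPM and at day 14 at 192.4, 283.5, 435.3 and 184.7 CPM. The 3 groups did not overlap, and day 2 replicate 3 had 58 microglia only. The log2 fold change was 5.36 (SE 0.76, edgeR adjusted p = 0.000297) for day 2 over sham and 7.83 (SE 0.75, adjusted p = 1.38e-05) for day 14 over sham. With sham near 0 these sizes depended on the setting. They were 2.82 and 5.48 with expected counts rounded up and 7.50 and 9.96 without sham replicate 1, the ends of their ranges over 20 alternatives, and the calls were kept in each (edgeR and DESeq2 adjusted p up to 0.00242 and 0.000278). For day 14 over day 2 it was 2.46 (SE 0.57, adjusted p = 0.0204), which was lost without day 2 replicate 1 (1.97, adjusted p = 0.0885) or replicate 4 (2.79, adjusted p = 0.0563). Over its 20 alternatives that adjusted p ranged from 0.000539 to 0.0885. Ccl5 was the only member of the 7 that passed the filter in microglia, where 31.4%, 15.2% and 6.93% of 10145 genes were called in these contrasts. With sham at 4.87 CPM or below, it entered the fit through the stroke groups. The calls against sham are therefore given as a description. T cell marker genes in the microglia summed to 1 to 6 CPM at sham, 9 to 86 CPM at day 2 and 11 to 40 CPM at day 14. Without cells holding any count of 8 T or NK marker genes, the fold changes were 5.12, 7.79 and 2.67 (adjusted p = 0.000598, 1.83e-05 and 0.0182).

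**Figure D5:**
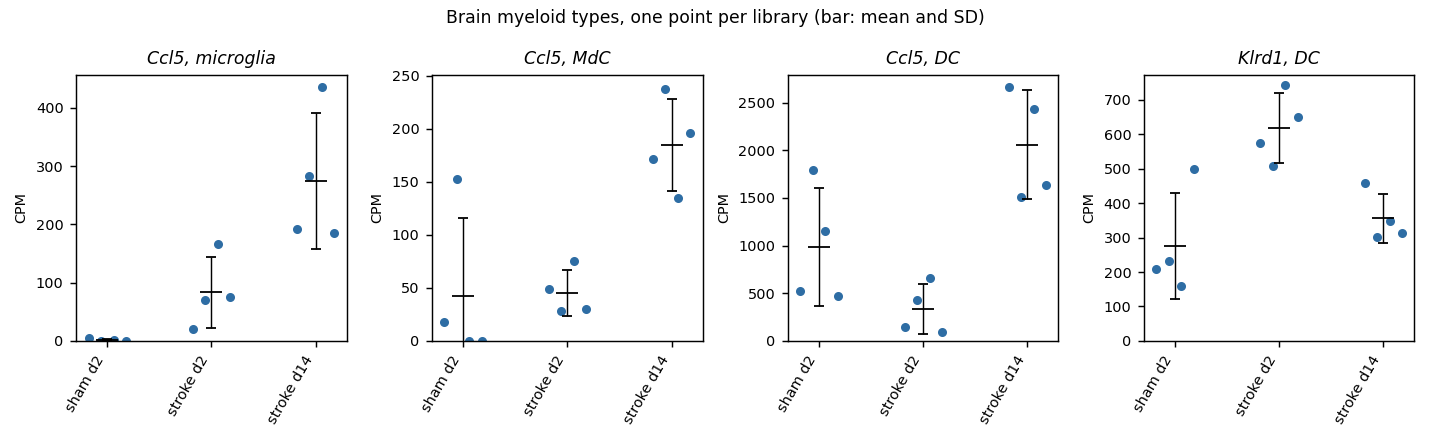
CPM of Ccl5 in microglia, MdC and DC and of Klrd1 in DC of young brain (vertical axes, linear), 1 point per library with mean and SD as bars drawn no lower than 0. Ccl5 in microglia lies at 4.87 CPM or below at sham and at 184.7 CPM or above at day 14, and Klrd1 in DC is highest at day 2, at 508 to 743 CPM.

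In DC of young brain, Ccl5 was higher at day 14 than at day 2. Ccl5 stood at 524, 1788, 1154 and 472 CPM at sham, 147, 426, 658 and 96.0 CPM at day 2 and 2665, 1506, 2431 and 1632 CPM at day 14. It was higher at day 14 than day 2 by a difference of 2.64 on the log2 scale (SE 0.58, edgeR adjusted p = 0.0489), with no overlap. This call was lost in 10 of 20 alternatives, each leaving out 1 of sham replicates 1, 3 and 4, day 2 replicates 1, 2 and 4, or day 14 replicates 1 to 4 (adjusted p 0.0545 to 0.184, and 0.000323 to 0.184 over all 20). Klrd1 stood at 209, 231, 159 and 501 CPM at sham, 575, 508, 743 and 650 CPM at day 2 and 460, 301, 348 and 314 CPM at day 14. Its day 2 over sham change of 1.17 (SE 0.31, adjusted p = 0.0928) was not called, although the groups did not overlap. It was called by DESeq2 (1.20, adjusted p = 0.0214) and without sham replicate 4 (1.65, adjusted p = 0.0354), with a range of 0.0117 to 0.203 over alternatives. Of the 4365 genes tested in DC, 1.01% were called at day 2 against sham, 1.53% at day 14 against sham and 0.893% at day 14 against day 2. Both members that passed the filter were counted, with 0, 0 and 1 called.

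MdC, a brain type whose highest marker list was that of monocytes and macrophages, held Ccl5 at 17.8, 152.3, 0 and 0 CPM at sham. It stood at 48.8, 27.9, 74.9 and 30.0 CPM at day 2 and 171.0, 237.6, 134.5 and 196.0 CPM at day 14, the latter above every day 2 library. The log2 fold change of day 14 over day 2 was 1.98 (SE 0.49, edgeR adjusted p = 0.0560), and over sham 2.28 (SE 0.68, adjusted p = 0.0686), neither called. DESeq2 called both (adjusted p = 0.00306 and 0.0114). Without sham replicate 2 they were 1.88 (adjusted p = 0.0302) and 4.49 (adjusted p = 0.00792), within ranges of 0.000324 to 0.203 and 0.00792 to 0.256. Ccl5 was the only member tested in MdC, with 0 calls against 6.71%, 5.15% and 1.79% of 8080 genes at day 2 against sham, day 14 against sham and day 14 against day 2.

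The blood type coded pre held members too. Its 3 finer groups held Mki67 at 854 to 1154 CPM, and only the group pre1 held Gzma, at 892.8 CPM, with Ccl5 at 1137 CPM. The fit held 1 sham library, 2 of day 2 and 3 of day 14. Between day 14 and day 2, 3 of 4 tested members were called (Gzma, Ccl5 and Nkg7), and 2.5% of all 879 genes. Members near 0 at day 2 could pass the filter only through the other groups, so this count is a description. Gzma stood at 1822, 373 and 3493 CPM at day 14 and at 0 in both day 2 libraries (adjusted p = 0.0026), so it has no fold. Ccl5 stood at 4456, 502 and 3162 CPM at day 14 and 111.3 and 13.0 CPM at day 2 (6.21, SE 1.04, edgeR adjusted p = 0.00346). Nkg7 gave 3.78 (SE 0.82, adjusted p = 0.0244). Day 14 and day 2 did not overlap for any of these. The single fitted sham library held Gzma at 438 CPM and Ccl5 at 503 CPM, within the day 14 range of both. Without blood day 2 replicate 4, which held 126 cells and left 1 day 2 library of 13 cells, assumed to vary like the other groups, the adjusted p was 0.391 for Gzma, 0.429 for Ccl5 and 0.698 for Nkg7. Without sham replicate 2 it was 0.0713, 0.0713 and 0.108. Nkg7 was not called by DESeq2 (adjusted p = 0.0782). Over alternatives the adjusted p ranged from 5.83e-19 to 0.391 for Gzma, 1.8e-17 to 0.429 for Ccl5 and 1.26e-05 to 0.698 for Nkg7. The finer group pre1 made up 64% of these cells at sham, 26.39% at day 2 and 66.67% at day 14, and its part in the result was not tested.

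In aged brain T cells none of the 4 members tested was called, between stroke and sham or against the young. Gzmb stood at 258 and 225 CPM at sham (male, female), at 595, 144 and 327 CPM at day 2 after stroke (male, female, female) and at 212 CPM in the single day 14 library. Ccl5 stood at 3737 and 4189 CPM at sham, 3963, 3797 and 3869 CPM at day 2 and 5854 CPM at day 14. Gzma was at 0 at sham and at 143.6, 72.2 and 0 CPM at day 2. The fit of day 2 libraries held 1131 genes, of which 4 were members. None was called (0% of genes) for aged stroke against sham, for aged against young at stroke or sham, or for the interaction of age and stroke, by edgeR or DESeq2. At an unadjusted p under 0.05 there were 41, 48, 43 and 34 genes. The interaction for Gzmb was -1.79 (SE 1.15) and for Ccl5 -0.29 (SE 0.79). The young were all male and the aged of both sexes, so age and sex cannot be told apart. NK cells were too few for a test, at 20 and 6 cells at sham, 1, 6 and 2 at day 2 and 9 at day 14. In aged microglia Ccl5 stood at 267 CPM in the male and 10.0 CPM in the female sham library. It stood at 241.9, 208.2 and 38.8 CPM at day 2 after stroke (male, female, female) and at 82.3 CPM in the single day 14 library. The male sham microglia also held Nkg7 at 74.5 CPM, Klrd1 at 15.7 CPM and Prf1 at 5.15 CPM, against 3.02, 3.38 and 0 CPM in the female. T cell marker genes summed to 0.938 and 315 CPM in the sham pair of libraries, given here by size and not in the order male, female. Brain cells coded BAM held Nkg7 at 375, Klrd1 at 165 and Ccl5 at 522 CPM in the male sham library (13 cells). In the female one (96 cells) these stood at 0, 0 and 39.3 CPM. In DC, Ccl5 went the other way, at 0 CPM in the male (8 cells) and 522 CPM in the female (24 cells). MdC listed Ccl5 at 0 in both. The part of T cell RNA in the Ccl5 level of the microglia was not tested.

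The genes most like the members across cell types were ranked by correlation. Likeness was the Pearson correlation of log2(CPM + 10) with the mean of the 7 members over 52 pooled units of cell type and young group, among 13346 genes. The units share libraries and differ in depth, so the value is a description. The 5 most alike were Klre1 (0.96), Cd160 (0.96), Klrb1c (0.95), Samd3 (0.94) and Il2rb (0.94). Klre1 and Klrb1c encode NK receptors, Cd160 a receptor of cytotoxic lymphocytes, and Il2rb a chain of the receptors for interleukins 2 and 15.

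The other 49 genes of lymphocyte cytotoxicity (granule enzymes, exocytosis, inhibitors, death ligands, receptors, adaptors, transcription factors, chemokines) were counted in each type. In NK cells 32 were tested between brain and blood, with 2 higher and 2 lower at sham (2.05% of all 1222 genes were called in either direction), 5 and 0 at day 2 (3.36%), and 2 and 2 at day 14 (6.3%). Their median log2 fold changes were -0.40, -0.01 and -0.15, against -0.13, -0.11 and 0.04 for all genes. Xcl1, a chemokine for cross-presenting dendritic cells, was higher in brain by 3.34 at sham (edgeR adjusted p = 0.00754), 3.10 at day 2 (0.0119) and 2.43 at day 14 (0.0158). Ccl4, a chemokine for leukocytes, was higher by 2.89 at sham (0.0130) and 2.39 at day 2 (0.0241). With 1 library left out, as few as 0 genes were called at sham, which drops the sham calls of Xcl1 and Ccl4. Ranges over alternatives are given for the members and not for each gene of this list. Srgn, the granule proteoglycan serglycin, was higher by 2.28 at day 2 (5.3e-05) and 1.68 at day 14 (0.000466). The transcription factor genes Eomes and Tbx21 were called lower at sham, where all 3 brain libraries listed them at 0 against 236 to 593 and 164 to 260 CPM in blood. Genes at 0 in sham brain could enter the fit only through other groups, so these calls and the list counts are given as a description. Il18rap and Il18r1, chains of the interleukin 18 receptor, were lower at day 14 by -1.39 (0.0158) and -1.03 (0.0423). No gene of the list was called over time in NK or T cells of either tissue.

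In T cells 31 of the list were tested between brain and blood, with 5 higher and 0 lower at sham (3.74% of all 4625 genes were called in either direction), 9 and 0 at day 2 (8.02%), and 6 and 1 at day 14 (7.61%). The medians were 0.82, 0.70 and 0.85, against -0.27, -0.13 and 0.06 for all genes. Ccl4 was higher in brain by 6.51, 5.83 and 4.34 (edgeR adjusted p = 0.000275, 8.91e-05 and 0.000101). Ccl3, another such chemokine, was listed at 0 in all sham blood libraries and was higher by 4.69 at day 2 (0.00777) and 4.18 at day 14 (0.00743). Ifngr2, a chain of the interferon gamma receptor, was lower by -2.08 at day 14 (0.0246). Fcer1g, a signalling adaptor, was called higher at sham (1.64, 0.0382) and gave -5.58 in T cells with a CD8 count.

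In microglia, Ifngr1, a receptor gene for interferon gamma, was lower after stroke than at sham. Without TMM scaling the median of all genes in microglia moved from -0.05 to -0.22 at day 2 and from -0.04 to -0.49 at day 14 against sham, and Ifngr1 did not change direction. Of 24 listed genes tested there, 5 rose and 5 fell at day 2 against sham, 9 rose and 2 fell at day 14 against sham, and 4 rose and 0 fell between the stroke times. Of all 10145 genes, 31.4%, 15.2% and 6.93% were called in either direction in these contrasts. The medians of the listed genes were 0.28, 0.56 and 0.65, against -0.05, -0.04 and 0.10 for all genes. Ifngr1, the ligand-binding chain for interferon gamma, stood at 630 to 940 CPM at sham, 170 to 362 CPM at day 2 and 281 to 366 CPM at day 14. It fell by 1.36 at day 2 (edgeR adjusted p = 0.00199) and by 0.89 at day 14 (0.0296) on the log2 scale. Cst7, cystatin F, an inhibitor of granzyme-activating cathepsins, rose by 3.86 at day 2 (7.15e-05) and 7.29 at day 14 (1.77e-06). Id2, a transcriptional regulator, rose at day 2 by 1.41 (0.0491). The transcription factor genes Prdm1 and Zeb2 fell at day 2 by 2.46 (0.00276) and 1.20 (0.00766), and Prdm1 was higher at day 14 than at day 2 by 1.86 (0.0394). The cytokine gene Tnf and Ccl4 rose at day 14 against sham by 2.32 (0.0403) and 2.07 (0.0464). H2-T23, which encodes the ligand of CD94 receptors, stood at 206.2 to 302 CPM at sham, 82.9 to 137.1 CPM at day 2 and 339 to 459 CPM at day 14. It rose between day 2 and day 14 by 2.19 (0.000122), from a day 2 level below every sham library. In brain DC, 1 of 23 tested list genes was called: Serpinb9, an inhibitor of granzyme B, was higher at day 14 than day 2 by 2.84 (0.0197), a contrast in which 0.893% of all genes were called. With 1 library left out, as few as 0 genes were called in that contrast, which drops the Serpinb9 call. In MdC, 4 of 25 were called higher at day 2 against sham, 2 at day 14 against sham and 1 between the stroke times, none lower, where 6.71%, 5.15% and 1.79% of all genes were called. They included Lamp1, a lysosome membrane protein exposed on degranulation, at 1.36 (0.0209) and 1.56 (0.00965).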

How the data were processed

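The deposited tables hold expected counts per gene and cell, per the values in the files: 0.00866% to 4.47% of non-zero values were exactly whole. The step that made them fractional is not given in the sources used here. The submitters' processing notes name mm10 and Seurat. Cell types are the authors' deposited annotation. Expected counts were summed per library and type and rounded. Library totals ran from 819438 to 5855050 counts, and types with few cells carry few counts, which lowers their precision. edgeR 4.0.16 (quasi-likelihood, TMM, its filter on low counts) was fitted to libraries with at least 10 cells of a type, with Benjamini-Hochberg adjustment per contrast and a threshold of 0.05. DESeq2 1.42.0 was an alternative, as were other filters, scalings, cell minimums, groups fitted and each library left out. Nothing in the labels says that replicates of a group came from separate mice, so p-values measure only the spread between libraries.

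Members and gene lists were chosen with earlier results of these data known. The 7 members were all named. Of the other 49 cytotoxicity genes, named ones rank among the top 3 called in 1 direction by size of change in a contrast, and not every such gene is named. The 5 genes most like the members were named by correlation. Steps were tested on simulated data. Doublets were not removed: Scrublet marked 38 of 106977 cells (0.0355%), too few to be a working call. Some genes of the lists are not reported here by name.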

Additional observations from a re-analysis of the deposited data

Results flagged for a closer look

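Of 62 groups of libraries tested for a value far from the others, 6 had one, where chance gives about 1 in 20 groups. In NK cells, Gzmb in blood at day 2 after stroke was highest in replicate 1 at 2165 CPM, and Klrd1 in sham blood was highest in replicate 4 at 1717 CPM. In T cells, Nkg7 in sham brain was lowest in replicate 4 at 497 CPM. Ifng in blood T cells at day 2 was above 0 in replicate 3 only, at 3.04 CPM, which is 1 count. Ccl5 in sham blood T cells was highest in replicate 3 at 1813 CPM. Ccl5 in sham brain MdC was highest in replicate 2 at 152.3 CPM, the library without which the day 14 change in MdC was called.

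The change of Ccl5 from day 2 to day 14 in NK cells differed between brain and blood by -2.22 on the log2 scale in the interaction test. That call was lost in 21 of 28 alternatives. The single aged brain library of day 14 after stroke entered no comparison. Of its member values in NK and T cells, 5 were flagged for lying above both aged sham libraries. In its 9 NK cells Gzma stood at 8208 CPM and Ccl5 at 16862 CPM. In its 345 T cells Gzma stood at 150.8 CPM, Nkg7 at 1735 CPM and Ccl5 at 5854 CPM. Not all values lay there: Gzmb in its T cells was below both sham libraries. Ccl5 in its DC was above both but was not flagged. A single library can lie above 2 others without a difference, so these values are a description.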

How the results depend on the processing

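Counts of member calls over all contrasts of a fit were recomputed under each alternative. In NK cells 8 calls became 5 with only the compared groups fitted, and 4 to 8 when 1 library was left out. Each tissue fitted alone covers only the contrasts over time within a tissue, and gave 1 call. With both tissues fitted, those contrasts held 1 call for brain day 14 against sham and 1 for brain day 14 against day 2. In T cells 7 calls became 11 without a filter, 4 with only the compared groups and 5 in cells with a CD8 count (3 on the same contrasts in all T cells), and 6 to 8 when 1 library was left out. In other types, 7 calls in all, the 4 in brain types became 2 to 6 and the 3 in the blood type pre 0 to 3 when 1 library was left out. The aged fit had 0 member calls throughout. Gzmb between sham brain and blood turned to -0.12 in NK cells without brain sham replicate 1 and to -2.78 in T cells with a CD8 count, where Fcer1g turned to -5.58. Cell shares moved beyond their interval after thinning in all but 27 of 84 cases. With a pseudocount of 50, 3 of the 5 most alike genes were kept, and 4 with a pseudocount of 1. The causes were not tested.

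Whether replicate numbers pair the libraries is not settled. Same-numbered deviations were correlated within each tissue only, so pairing of brain with blood was not examined. They correlated at -0.243 to 0.598 in NK cells (7 of 17 above 0.1) and -0.415 to 0.448 in T cells (8 of 22). The highest value in both cell types was that of brain replicate 3 at day 2 and day 14 after stroke. With the number as a replicate block, NK calls were 6, T calls 3 and calls in other types 6.

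Counts of all genes called moved by more than 1.5 times in these settings. In NK cells without a filter, brain over blood went from 25 to 40 at sham and from 77 to 258 at day 14, and in brain day 14 went from 3 to 62 against sham and from 1 to 53 against day 2. With only the compared groups, brain over blood at day 2 went from 41 to 14 and both day 14 contrasts in brain to 0; with the tissue alone day 14 against sham also had 0. The block gave 22 at day 2 and 21 at day 14 for brain over blood. The 1 gene of the interaction was lost without a filter, with 20 cells or no minimum, with the compared groups only and with the block. In T cells the block took brain over blood from 173, 371 and 352 to 78, 138 and 125, and the compared groups alone gave 70 and 136 at sham and day 2. CD8 cells gave 219 at day 14. Brain day 14 against sham, at 9, went to 40 without a filter, 17 rounded up, 63 in CD8 cells, 4 with the block and 1 with the compared groups or tissue alone. Brain day 14 against day 2 had 9 without a filter, and the other T contrasts over time moved by at most 2 genes. In microglia without TMM, 1544 became 3425 and 703 became 1157, and the latter became 1057 rounded up and 426 with the compared groups. In MdC, 145 became 312 by DESeq2 and 469 with the block, and 542 became 355 without TMM. In DC at day 2 against sham, 44 became 99 by DESeq2, 124 without a filter and 111 rounded up. At day 14 against sham, 67 became 128 and 127 in the last 2 settings. Between stroke times 39 became 119 by DESeq2, 60 without a filter, 59 with the compared groups and 111 with the block. In pre, 22 became 7 by DESeq2 and 4 with the compared groups. Aged T contrasts had 6, 5 and 22 genes without a filter in place of 0. Leaving out 1 library gave 791 to 2573 and 276 to 735 in the same microglia contrasts, in place of 1544 and 703, and 2094 to 3524 at day 2 against sham in place of 3182. In MdC it gave 284 to 524 in place of 542, 246 to 415 in place of 416 and 45 to 191 in place of 145. In DC it gave 16 to 85, 15 to 71 and 0 to 35, and in pre 4 to 68. Brain over blood in NK cells had 0 to 34, 12 to 44 and 33 to 114 genes at sham, day 2 and day 14, and in T cells 103 to 191, 246 to 390 and 183 to 396. Brain T cells at day 14 against sham had 3 to 12, and brain NK cells 0 to 4, with 0 to 1 in the interaction and 1 to 2 between stroke times. The Scrublet alternative was not run, since the caller marked too few cells. Brain NK cells held 14 to 31 cells per fitted library at sham and day 2, which limits their precision.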
